A study of Mus musculus with 2 samples.

Results

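Gamma-delta T cells in mouse parathyroid glands were chosen by their own transcripts, in 2 droplet libraries of single cells. A barcode counted as a member when it had at least 500 genes, under 15% mitochondrial UMIs (unique molecular identifiers, 1 per captured transcript) and under 1% Pth UMIs. It also needed a UMI of at least 2 of the 4 genes Trdc, Tcrg-C1, Cd163l1 and Il23r, at least 1 UMI of Cd3e, Cd3d or Cd3g, and at most 1 UMI of C1qa, C1qb and C1qc together. In all 88 of 4924 barcodes were members, 37 of 1406 in replicate 1 and 51 of 3518 in replicate 2. They were set against the other barcodes with a Ptprc UMI (the pan-leukocyte gene CD45) and under 1% Pth UMIs, 178 in replicate 1 and 252 in replicate 2.

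The glands grew from mouse embryonic stem cells with a Pth-tdTomato reporter, placed in embryos of Gcm2-/- hosts on a BDF1B6 background, which cannot form the gland themselves. In replicate 1, tissue from 3 animals of 9 to 12 weeks was combined, with chimerism of the blood between 50 and 70%. In replicate 2 there were 5 animals of 6 to 13 weeks, with 60 to 70%. Males and females were mixed in each, and there is 1 group only, so that cell classes were compared inside the glands and p-values measure the spread between these 2 pools. Enzyme digestion and a sort that removed doublets came before the 3' libraries, and both can set the share of any cell type. The tissue label was borne out by Pth, the hormone gene: 688 of 1262 and 2265 of 3322 barcodes within the gene and mitochondrial limits carried 1% or more of it.

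A gamma-delta T cell recognises its targets with a receptor of a gamma and a delta chain in place of the alpha and beta chains of most T cells. Some are set up in the thymus before birth to make interleukin-17, leave early and settle in tissues, where they divide slowly or persist. The best known of these use the gamma segment called V gamma 6 (Tcrg-V6) with the delta segment called V delta 1 (Trdv4), and respond to interleukin-1 and interleukin-23 without a fresh antigen signal. Cd163l1 encodes SCART1, a scavenger receptor found on such cells, and Il23r the receptor chain for interleukin-23.

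The germline 3' ends of the 3 variable segments most often found in members are shown, because these segments carry the finding on receptor use. Each is the last 90 bases of the coding segment in GENCODE transcripts on GRCm38. The capitals mark the codon of the conserved second cysteine, after which rearranged sequence can differ from the germline. Junctions were not read, so their variety between members is not known here.
Tcrg-V6, chr13:19190840-19190929, plus strand: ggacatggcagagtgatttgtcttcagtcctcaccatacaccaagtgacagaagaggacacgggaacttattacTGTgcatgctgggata
Trdv4, chr14:54075426-54075515, plus strand: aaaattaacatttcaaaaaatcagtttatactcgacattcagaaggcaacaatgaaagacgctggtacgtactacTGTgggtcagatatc
Trgv2, chr13:19336573-19336662, minus strand: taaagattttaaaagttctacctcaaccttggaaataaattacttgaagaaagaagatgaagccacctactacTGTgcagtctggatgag

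Members were recognised by more than the minimum. All 4 rule genes had a UMI in 35 of 37 members of replicate 1 and in 44 of 51 of replicate 2, and 6 members in all were at the limit of 2. Just outside the rule lay 3 and 4 barcodes with Cd3 UMIs and only 1 of the 4 genes, and 1 barcode of replicate 2 that failed on Pth alone. The lowest sum of Cd3e, Cd3d and Cd3g was 12 UMIs in replicate 1 and 13 in replicate 2, far from the limit of 1. Il17a, which was named as a marker of these cells but was not used to choose them, had a UMI in 19 and 23 members. Members had medians of 12357 and 8838 UMIs, against 14685.5 and 14798 for the other Ptprc-positive barcodes. Median mitochondrial shares were 2.58% and 3.16%. The libraries shared 3 barcode sequences, none of them a member's.

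Not every member carried the delta chain. In 5 members, 1 of replicate 1 and 4 of replicate 2, Trdc had no UMI, and all 5 were also without Cd163l1, Trdv4 and Tcrg-V6. They had 33, 5, 15, 3 and 1 UMIs of Trac, the alpha chain, and between 7 and 19 of the beta chain gene Trbc2. These barcodes entered through Tcrg-C1 and Il23r, and all 5 also had the gamma chain genes Trgv2, at 2, 6, 4, 9 and 4 UMIs, and Tcrg-C2. Of the 79 members with all 4 rule genes 20 had a Trac UMI too. A further member of replicate 1 had 22 of the library's 24 member UMIs of Gzmb, a granule protease, with neither Cd163l1 nor Il23r. Results that turned on these 6 barcodes are given without them where the count of calls moved.

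Another member of replicate 1 held RNA of 2 cell types. It had 49731 UMIs against 18971 in the deepest member of replicate 2, held 382 of the 388 Dcn and 171 of 171 Col1a2 UMIs of that library's members, and was the only member that Scrublet predicted as a doublet, at a score of 0.329. Dcn and Col1a2 are fibroblast genes. The 6 fibroblast markers summed to 1742 CPM (counts scaled to a common total per class and library) in replicate 1 with this barcode and to 25.1 CPM without it, against 33.0 CPM in replicate 2. A member of replicate 2 with all 4 rule genes and 18971 UMIs held all 12 UMIs of Il1rl1, the interleukin-33 receptor of type 2 cells, in that library's members. Markers of type 2 innate lymphoid cells summed to 182 and 341 CPM in members, against 287 and 365 CPM in the other Ptprc-positive barcodes, and endothelial markers to 77.9 and 68.2 CPM, against 255 and 217. Alpha-beta T cell markers, Trbc1 and Trbc2 among them, summed to 1129 and 1374 CPM, against 256 and 151 in the other Ptprc-positive barcodes. B and plasma cell markers summed to 36.9 and 55.0 CPM, against 103 and 50.3. Of the other cell types checked, mast and basophil markers were at 0 in 6 of 6 genes. Neutrophil markers summed to at most 4.10 CPM, macrophage markers to at most 14.3 CPM, and natural killer cell markers to 22.5 and 2.20 CPM. Pth stood at 1631 and 1928 CPM, a level also found in the other immune classes (1613 and 1689 CPM over the other Ptprc-positive barcodes).

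Members made up 17.2% of all Ptprc-positive and member barcodes in replicate 1 (37 of 215, exact 95% interval 12.4 to 22.9) and 16.8% in replicate 2 (51 of 303, 12.8 to 21.5). The mean was 17.02% ± 0.267 (SD, n = 2), and the intervals overlapped. By these rules they outnumbered the other Cd3-positive lymphocytes, of which there were 15 and 14. Of the rest, 58 and 131 were C1q macrophages (at least 5 C1q UMIs), 24 and 28 innate lymphoid (no or 1 Cd3 UMI and at least 2 natural killer or type 2 genes) and 81 and 79 remained.

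**Figure D1:**
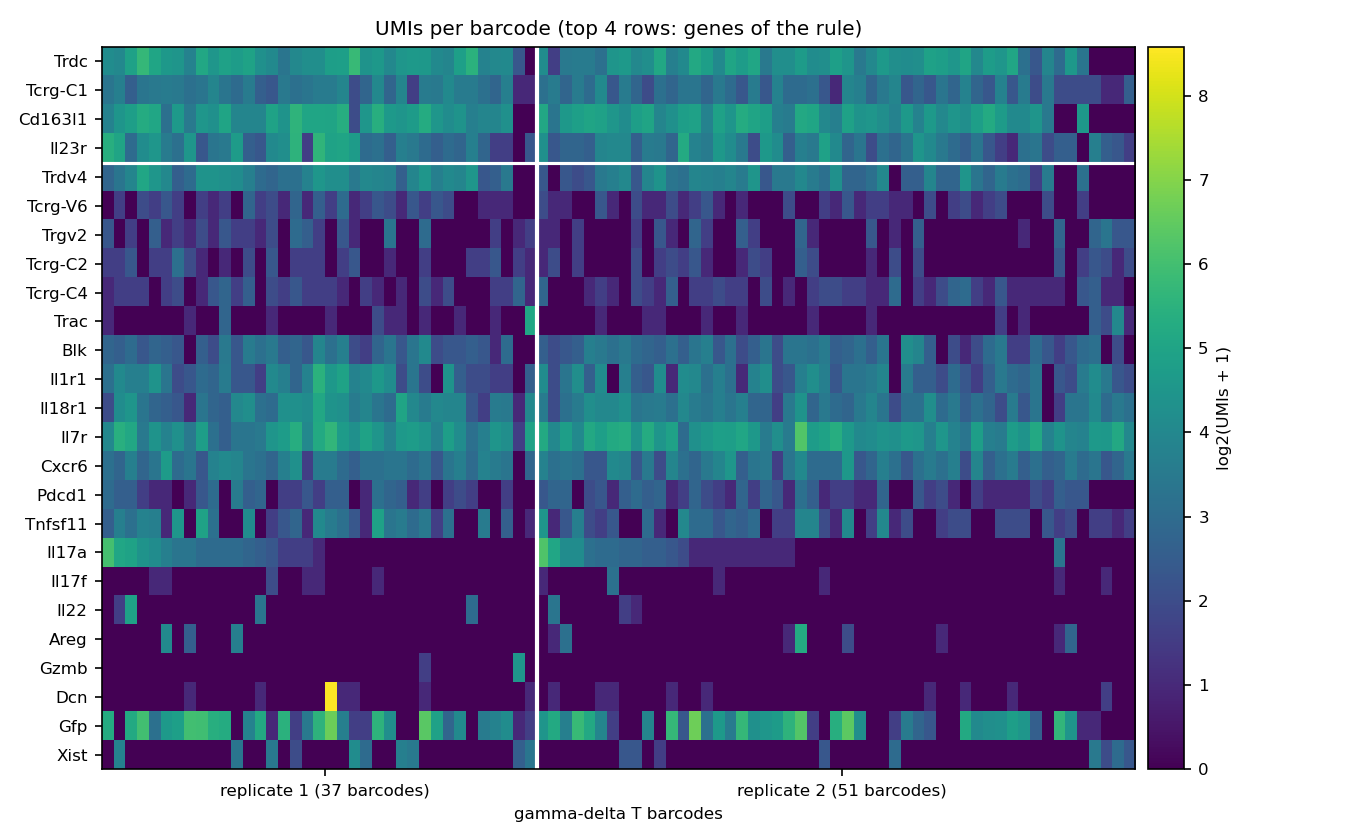
UMIs per barcode as log2(UMIs + 1), with 1 column per member (37 in replicate 1 and 51 in replicate 2, ordered by the number of rule genes and then by Il17a) and 1 row per gene. The 4 rule genes above the white line are present in nearly all columns; Il17a fills the left of each block, with 1 further member among those with fewer rule genes in replicate 2, Trdv4 is near continuous, and the columns at the right end of each block with no Trdc carry Trac. The single bright Dcn cell is the barcode with fibroblast RNA.

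The variable segments were read first. Trdv4 had a UMI in 35 of 37 members (94.6%, exact 95% interval 81.8 to 99.3) and in 43 of 51 (84.3%, 71.4 to 93.0), with medians of 13 and 8 UMIs and a maximum of 33. Its level was 973 and 931 CPM. It was not particular to the members: 12 of 24 and 10 of 28 innate lymphoid barcodes had a Trdv4 UMI too, at 54.3 and 58.7 CPM, while the C1q macrophages had 0 UMIs. Tcrg-V6 had a UMI in 29 and 31 members (78.4% and 60.8%), at 160 and 139 CPM. In the other 430 Ptprc-positive barcodes there was 1 Tcrg-V6 UMI, in a macrophage. All 29 members with Tcrg-V6 in replicate 1 also had Trdv4, as did 29 of 31 in replicate 2, so that 58 of 88 members (65.9%) showed both segments of the pair printed above. The 8 members with neither included the 5 without Trdc.

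Other segments were rarer. Trgv2 had a UMI in 23 and 21 members, with at most 9 UMIs, and Tcrg-V1 in 3 and 9. Tcrg-V5 had 13 UMIs in all, Tcrg-V4 had 5, in 3 members of replicate 2, and Tcrg-V7 had 1. Tcrg-V3, Trdv1, Trdv2-1 and Trdv3 had 0 UMIs in the 88 members, which allows a share of members with a UMI of up to 9.49% in replicate 1 and 6.98% in replicate 2 (exact 95% upper bounds). Trgv2 went with its neighbour, the constant gene Tcrg-C2: of the Trgv2-positive members, 20 of 23 and 20 of 21 had a Tcrg-C2 UMI, against 3 of 14 and 3 of 30 of the Trgv2-negative ones. Of the Trgv2-positive members 17 of 23 and 10 of 21 had Tcrg-V6 as well. A segment UMI does not show that the segment was rearranged in frame, and a 3' library reads the segments, which lie far from the 3' end, less often than the constant genes.

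The constant genes and their partners followed. Cells with gamma-delta receptors need the CD3 chains and the zeta chain, from Cd247, to signal. Of the 15 genes in the list of receptor chains, 5 were used by the rule. Of the other 10, 6 were tested against the other Ptprc-positive barcodes and all 6 were higher; over all 10388 genes tested, 4.65% were called higher and 11.1% lower. Calls here are from edgeR's quasi-likelihood test on UMI sums of 2 classes in 2 libraries, with the library as a block and a Benjamini-Hochberg adjusted p under 0.05. Cell types differ in many genes at once, so these calls describe the class and give no independent support to its name. Tcrg-C2 stood at 119 and 130 CPM against 1.08 and 0.259, a log2 fold change of 7.23 ± 0.51 (SE, adjusted p = 0.00521, edgeR). Tcrg-C2 is 96.1% identical to Tcrg-C1 over 906 aligned transcript bases, so its reads could be split between the copies. Cd247 stood at 430 and 471 CPM against 29.6 and 6.48. Set against the other Cd3-positive lymphocytes, 0 of 8 tested genes of this list were called, so these levels were not particular to members. There 0.801% of all tested genes were called higher and 0.639% lower. Members had 3 of 8 higher than the innate lymphoid barcodes and 0 lower.

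Beta chain RNA was also plentiful. Trbc1 stood at 408 and 544 CPM and Trbc2 at 545 and 731 CPM, and a Trbc2 UMI was found in 37 of 37 and 50 of 51 members. The innate lymphoid barcodes, which lack a T cell receptor, had a Trbc2 UMI in 18 of 24 and 23 of 28 and a Trbc1 UMI in 20 of 24 and 24 of 28. Trac was at 104 and 74.8 CPM, with a UMI in 12 and 13 members, and at 37.8 and 23.9 CPM without the 5 members that had no Trdc UMI. Cd4, Cd8a and Cd8b1, the co-receptors of alpha-beta T cells, had 0 UMIs in all 88 members. In the other Cd3-positive lymphocytes Cd4 had a UMI in 5 of 15 and 3 of 14.

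Genes that carry the receptor signal rose in part. Of 25 tested genes of this list 12 were higher and 1 was lower, against 4.65% and 11.1% of all tested genes. The median log2 fold change was 1.04 against -0.09 over all tested genes. Lat, the adaptor on which the signal is assembled, stood at 377 and 462 CPM against 23.1 and 15.0, a log2 fold change of 4.19 ± 0.31 (adjusted p = 0.00532, edgeR). Zap70, the kinase that binds the CD3 chains, stood at 219 and 207 CPM against 12.6 and 8.04, and Icos, a costimulatory receptor, at 639 and 412 CPM against 40.8 and 41.2. Fyb, an adaptor also used by myeloid cells, was the 1 that fell, from 446 and 433 CPM to 34.8 and 30.8. Lck, the Src family kinase of most T cells, stood at only 6.15 and 13.2 CPM, against 187 and 133 CPM in the other Cd3-positive lymphocytes (log2 fold change -4.06, adjusted p = 0.0465, edgeR). Blk, a Src family kinase known from B cells and from interleukin-17 producing gamma-delta T cells, stood at 438 and 685 CPM, against 4.08 and 0 in those lymphocytes. It had a UMI in 34 and 47 members. Ptpn22, a phosphatase of this pathway, stood at 287 and 295 CPM against 158 and 84.8 and was not called (adjusted p = 0.0821, edgeR). It was called without the barcode with fibroblast RNA (adjusted p = 0.0111, edgeR), with doublet scores of 0.25 or more left out (1.43e-05) and with no filter on low counts (0.0420).

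Among transcription factors of type 17 cells and lymphocytes 10 of 31 tested genes were higher and 5 lower, with a median log2 fold change of 0.49. The shares over all tested genes were 4.65% and 11.1%. Sox13, a factor of gamma-delta T cells that make interleukin-17, stood at 94.2 and 141 CPM against 1.08 and 2.07. Ikzf3 (Aiolos) was the most abundant of those called, at 1383 and 1939 CPM against 91.7 and 92.8. Rora stood at 1344 and 1321 CPM against 246 and 279, but innate lymphoid barcodes had more, 1792 and 2479 CPM. Bcl11b, needed for T cell identity, stood at 301 and 350 CPM against 26.4 and 19.2. Maf, a factor that gamma-delta cells making interleukin-17 require, stood at 484 and 493 CPM in members and was not called against 158 and 410 CPM. C1q macrophages also had Maf, at 336 and 682 CPM. Zbtb16 (PLZF) stood at 664 and 304 CPM against 75.5 and 148. It was not called with the barcode with fibroblast RNA (adjusted p = 0.100, edgeR) and was called without it (0.0124). Stat3, Ahr, Nfkbiz, Rbpj and Prdm1 were the 5 that were lower. Foxp3, the factor of regulatory T cells, had 0 UMIs in members. Eomes was also at 0. Set against the other Cd3-positive lymphocytes, 1 of 28 tested genes of this list was higher and 0 were lower. For the innate lymphoid barcodes these counts were 3 and 3 of 28.

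Interleukin-17A came from members alone among the Ptprc-positive barcodes. Il17a stood at 502 CPM (245 UMIs, 95% Poisson interval 441 to 569) in replicate 1 and 460.0 CPM (209 UMIs, 400 to 527) in replicate 2. There were 0 Il17a UMIs in the other 430 Ptprc-positive barcodes, so that it was at least 1062-fold higher, with 3 UMIs over those barcodes as the floor. Members with 0 Il17a UMIs, as in every one of those barcodes, were 18 of 37 and 28 of 51. Within the members Il17a was uneven. A UMI was found in 19 of 37 (51.4%, exact 95% interval 34.4 to 68.1) and 23 of 51 (45.1%, 31.1 to 59.7), with medians of 1 and 0 and maxima of 65 and 73 UMIs. The 5 highest members held 67.3% and 71.3% of the Il17a UMIs. With every barcode thinned to 3000 UMIs the shares were 37.8% and 33.3%, and 0% in the other barcodes. Of the 79 members with all 4 rule genes 51.9% had Il17a, and of the 9 others 1 did. The 2953 barcodes with 1% Pth or more held 1 and 2 Il17a UMIs in the 2 libraries.

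Other effector cytokines were sparse or shared. Of 24 tested genes 5 were higher and 7 lower, against 4.65% and 11.1% of all tested genes, with a median log2 fold change of -0.96. Il17f had 0 UMIs in the other Ptprc-positive barcodes and 16.4 and 28.6 CPM in members, from 6 members of each replicate. Il22, a cytokine that acts on epithelia, had 47 and 12 UMIs from 4 and 3 members (96.3 and 26.4 CPM), again with 0 UMIs in the others, and 6 of those 7 members had Il17a. Tnfsf11 (RANK ligand, which drives osteoclast formation) stood at 561 and 469 CPM against 14.4 and 16.1, a log2 fold change of 4.77 ± 0.24 (adjusted p = 0.00423, edgeR), with a UMI in 29 and 40 members. Innate lymphoid barcodes had 95.0 and 73.3 CPM of it and the other Cd3-positive lymphocytes 44.8 and 259. Ltb, lymphotoxin beta, stood at 619 and 599 CPM against 54.2 and 82.5. Csf2 differed between the libraries, at 2.05 and 46.2 CPM. Areg stood at 67.6 and 128 CPM from 3 and 8 members, but the member of replicate 2 with Il1rl1 held 37 of that library's 58 UMIs, and without it the level was 48.2 CPM. By comparison, innate lymphoid barcodes had 804 and 1313 CPM. Ifng stood at 8.20 CPM in replicate 1 and 0 in replicate 2. The lower genes included the chemokines Ccl3 and Ccl4, with 2 and 1 UMIs in all members, and Ccl5. Ccl3 was not called in a fit over 5 classes of Ptprc-positive barcodes, against the mean of the other 4 (adjusted p = 0.0812, edgeR).

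**Figure D2:**
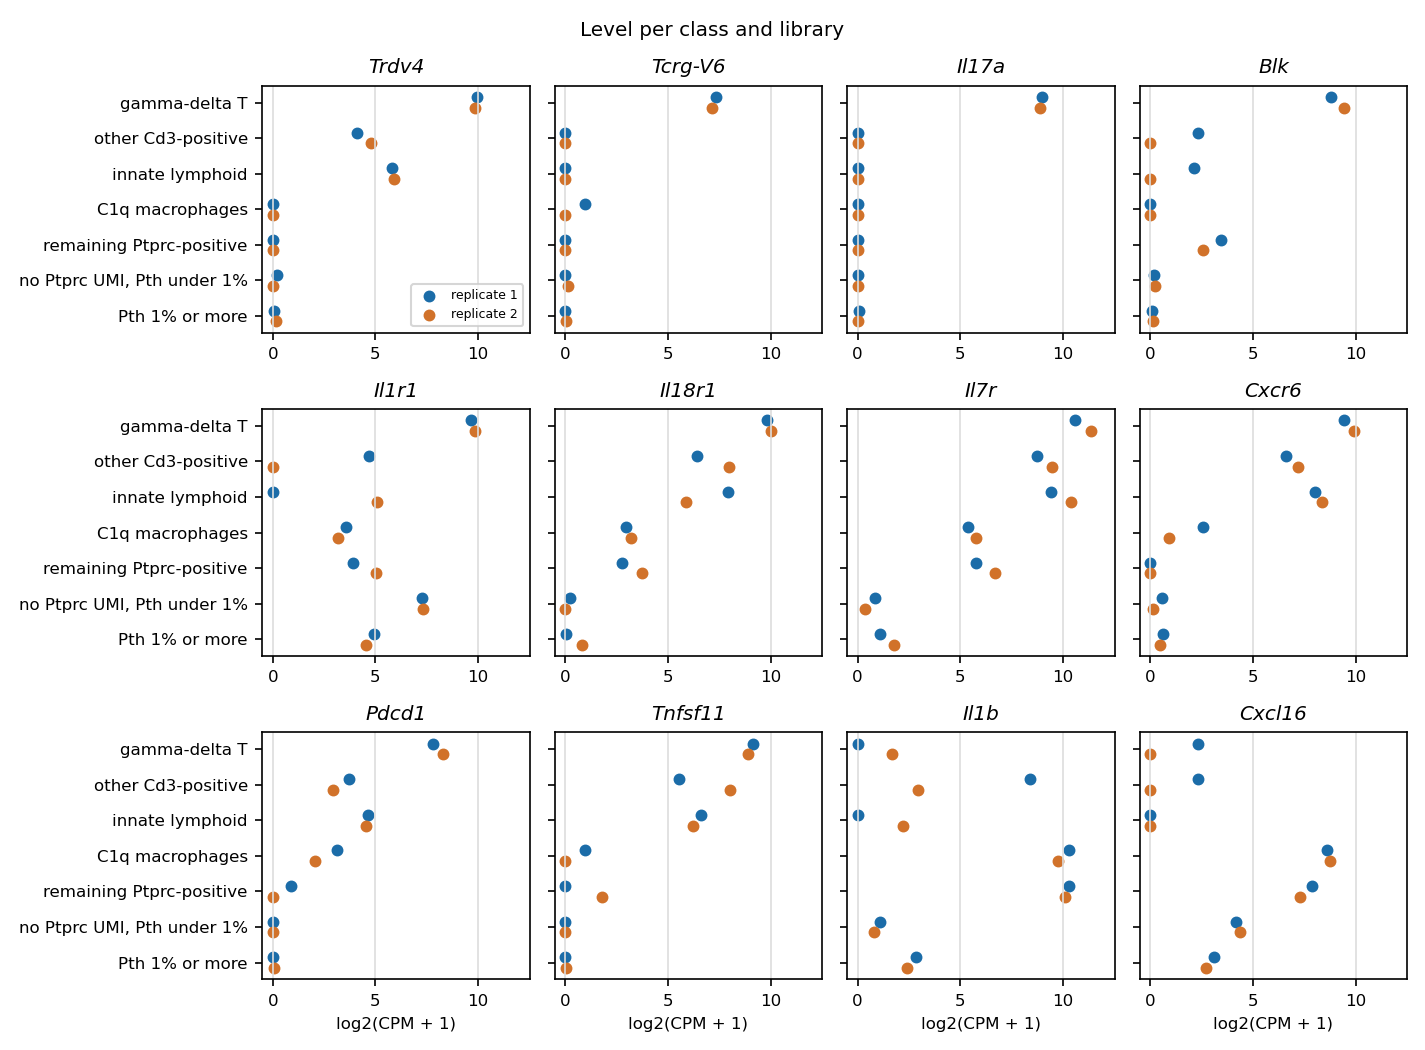
Level of 12 genes as log2(CPM + 1) in 7 classes of barcodes, with 1 point per library. Trdv4 is highest in the members but also above 0 in innate lymphoid barcodes, Tcrg-V6 and Il17a stand at or near 0 outside the members, and Il1b and Cxcl16 are highest in C1q macrophages and the remaining Ptprc-positive barcodes.

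Cytokine receptors were called in both directions. Of 26 tested cytokine receptor genes 10 were higher and 6 lower, against 4.65% and 11.1% of all tested genes. Their median log2 fold change was 0.43. Il1r1, the receptor for interleukin-1, stood at 791 and 929 CPM against 12.3 and 16.9, a log2 fold change of 5.59 ± 0.22 (adjusted p = 0.00258, edgeR), with a UMI in 35 and 48 members. Il18r1 stood at 914 and 1041 CPM against 38.3 and 22.3 and had a UMI in 37 of 37 and 50 of 51. Il7r, the receptor for the survival cytokine interleukin-7, stood at 1526 and 2635 CPM against 148 and 186. Il17re, a receptor chain for interleukin-17C, stood at 69.7 and 119 CPM against 0.722 and 1.30. Il12rb1, which pairs with Il23r, was lower in level, at 22.5 and 33.0 CPM, and still called higher. Il2ra stood at 279 and 517 CPM against 150 and 95.7 and was not called (adjusted p = 0.0950, edgeR), but was without the barcode with fibroblast RNA (adjusted p = 0.00968). With that barcode kept, Il2ra was called with no replicate block (adjusted p = 0.0468, edgeR) and with no filter on low counts (0.0235). It was also called without C1q macrophages among the others (0.0337, edgeR). Il6ra fell from 122 and 151 CPM to 4.10 and 4.40. Il1r2, the decoy receptor for interleukin-1, had 0 UMIs in members against 286 and 190 CPM.

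Homing genes split in both directions. Of 26 tested genes 5 were higher and 8 lower, against 4.65% and 11.1% of all tested genes. Without the barcode with fibroblast RNA 11 and 9 were, where 9.98% of all tested genes were called higher and 21.1% lower. Compared with the innate lymphoid barcodes, 0 of 23 tested homing genes were higher and 2 were lower. The values below are against the other Ptprc-positive barcodes. Cxcr6, the receptor for the chemokine Cxcl16, stood at 697 and 984 CPM against 38.3 and 29.6, with a UMI in 36 of 37 and 51 of 51 members. Ltb4r1, a leukotriene B4 receptor, stood at 287 and 308 CPM against 46.9 and 54.7. Ccr6 was low at 12.3 and 55.0 CPM, from 4 and 14 members, and was called higher. Klf2 and Ccr7 were lower. Klf2, a transcription factor of recirculating lymphocytes, stood at 47.1 and 52.8 CPM against 286 and 472, and Ccr7, which guides cells to lymph nodes, had 1 UMI in all members against 187 and 64.3 CPM. Ccr7 was not called in a fit over 5 classes of Ptprc-positive barcodes, against the mean of the other 4 (adjusted p = 1, edgeR). S1pr1, the exit receptor, stood at 14.3 and 8.80 CPM against 29.6 and 23.3. It was not called with the barcode with fibroblast RNA (adjusted p = 0.0887, edgeR) and was called without it (0.0428). Cd69 stood at 404 and 614 CPM against 201 and 171 and Ccr2 at 486 and 720 against 263 and 195. Both were uncalled in the main fit and called without that barcode (adjusted p = 0.00371 and 0.00952, edgeR). With that barcode kept, Ccr2 was also called with no replicate block (adjusted p = 0.0401, edgeR) and with no filter on low counts (0.0221).

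Few genes of killing were found. Of 16 tested genes 1 was higher, near the 4.65% of all tested genes, and 5 were lower, against 11.1%. Tyrobp and Fcer1g, signal chains of natural killer and myeloid cells, fell: Tyrobp stood at 20.5 and 2.20 CPM against 1218 and 1277, and Fcer1g at 24.6 and 4.40 CPM against 1110 and 1218. Tyrobp lost its call in the fit over 5 classes (adjusted p = 0.0522, edgeR). Cst7 was the 1 called higher, at 47.1 and 70.4 CPM against 6.86 and 1.04. Gzma had 0 UMIs, Prf1 0 and 2.20 CPM, and Gzmb 24 UMIs, of which the member named above held 22. Klrk1 (NKG2D) stood at 143 and 152 CPM against 104 and 63.5 and was not called.

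Among costimulatory and checkpoint receptors 5 of 17 were higher and 3 lower, against 4.65% and 11.1% of all tested genes. Pdcd1 (PD-1) stood at 219 and 310 CPM against 6.86 and 3.63, a log2 fold change of 5.39 ± 0.43 (adjusted p = 0.00553, edgeR), with a UMI in 28 and 43 members. Cd96 and Cd226, receptors that share ligands of the nectin family, were both higher, as was the tetraspanin Cd82. Havcr2 (TIM-3) had 0 UMIs in members against 72.2 and 92.6 CPM and was not called in the fit over 5 classes (adjusted p = 1, edgeR). Entpd1 (CD39) had 1 UMI. Ctla4 stood at 82.0 and 37.4 CPM against 22.02 and 25.2 and was not called.

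Genes of cell state were read against the 4.65% of all tested genes called higher and the 11.1% called lower. Of 33 immediate early and dissociation genes 12 were lower and 1 (Dusp5) was higher, with a median log2 fold change of -0.79; without the barcode with fibroblast RNA 21 were lower, where 21.1% of all tested genes were. Atf3 stood at 123 and 141 CPM against 678 and 682, and Egr2 had 0 UMIs against 40.4 and 98.5 CPM. Junb was the most abundant uncalled gene, at 4325 and 3049 CPM against 1998 and 2447. Of 18 tested cell cycle genes 0 were higher and 4 lower, and Mki67, a gene of dividing cells, had 2 UMIs in the 88 members against 30.3 and 59.9 CPM. Those 2 UMIs came from 2 members of replicate 1. Each of the 4 lower cell cycle genes lost its call in at least 1 alternative: Mki67, Birc5 and Stmn1 in the fit over 5 classes (adjusted p = 0.268, 0.223 and 0.167, edgeR) and Top2a with no replicate block (0.0974, edgeR) and with DESeq2 (0.132). Of 24 lipid and glucose genes Hk2 and Pfkp, enzymes of early glycolysis, were higher, and 6 genes were lower, among them Apoe, Cd36 and Lgals3, which are abundant in macrophages. Hk2 stood at 475 and 258 CPM against 189 and 103, and was not called with no replicate block (adjusted p = 0.133, edgeR). Apoe, Cd36 and Lgals3 were not called in the fit over 5 classes (adjusted p = 0.0554, 1 and 0.0511, edgeR).

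Class II antigen presentation stood apart. Of 26 genes of presentation and interferon response 9 were lower and 1 (H2-Q7) was higher, against 11.1% and 4.65% of all tested genes. Cd74 stood at 14.3 and 11.01 CPM against 16527 and 18574, and H2-Aa had 1 UMI in all members against 6258 and 8163 CPM. Class I genes did not follow, and H2-D1 stood at 1957 and 1759 CPM against 1927 and 1746 (log2 fold change -0.27, adjusted p = 0.228, edgeR). These differences, and the lowest genes of the comparison as a whole (S100a8, Mrc1, Cybb, Wfdc17 and Cd14, all with 0 UMIs in members and from 527 to 1971 CPM on average in the others), are genes known from macrophages, dendritic cells and neutrophils; C1q macrophages alone were 58 of the 178 and 131 of the 252 other barcodes. Without C1q macrophages among the others, 1298 genes were called in place of 1635, and in the fit over 5 classes, against the mean of the 4 others, 548 were higher and 449 lower of 7997 tested, in place of 483 and 1152 of 10388. That fit has 4 residual degrees of freedom in place of 1. In it S100a8, Mrc1, Cybb and Wfdc17 were not called (adjusted p = 0.286, 1, 0.0663 and 1, edgeR), and with DESeq2 Mrc1, Wfdc17 and Cd14 were not (0.0727, 0.0539 and 0.0562).

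**Figure D3:**
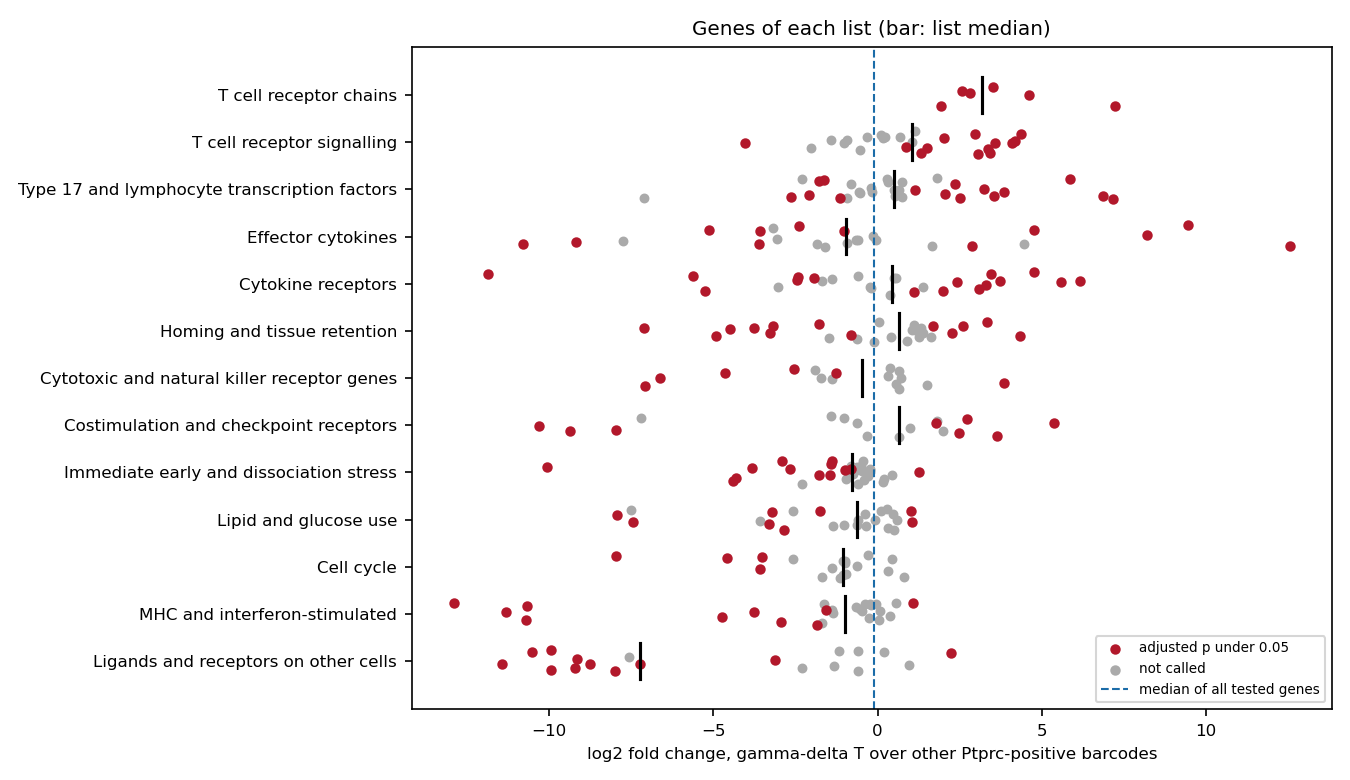
Log2 fold change of members over other Ptprc-positive barcodes for each tested gene of 13 lists, without the rule's genes; red points passed an adjusted p of 0.05, bars are list medians and the dashed line is the median of all tested genes (-0.09). Receptor chain genes all lie to the right, and ligands and receptors of other cells lie mostly to the left, with a median of -7.24.

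The genes that were highest against the other Ptprc-positive barcodes were mostly not cytokine genes. Beside Il17a, Il22, Tcrg-V6 and Tcrg-C2, they were Cdh10, Ppp1r14c, Mtcl1, Tdrd9, Shank2, Fstl4, Ablim3 and Actn2. Cdh10, a cadherin known from brain, stood at 307 and 317 CPM with 2 UMIs in the others, a ratio of 1034 (counting interval 286 to 8539), and had a UMI in 27 and 33 members. Ppp1r14c, an inhibitor of protein phosphatase 1, stood at 285 and 381 CPM against 1.08 and 0.259. Actn2, an actin cross-linker known from striated muscle, stood at 334 and 473 CPM against 2.17 and 1.82, with a UMI in 33 and 50 members. Shank2, a scaffold of synapses, stood at 49.2 and 83.6 CPM with 1 UMI in the others, and Tdrd9, a helicase known from the germ line, at 84.0 and 88.0 CPM with 1.

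Against the other Cd3-positive lymphocytes fewer genes differed. This comparison class was small and mixed: 7 of 14 barcodes of replicate 2 had a UMI of Il1rl1, a type 2 innate lymphoid gene, and neutrophil markers summed to 5995 CPM in replicate 1, against 66.4 in replicate 2; the part of these cells in the result was not tested. Of 7987 genes tested in a fit over 5 classes and both libraries 64 (0.801%) were higher in members and 51 (0.639%) lower. With the barcode of fibroblast RNA left out 119 and 156 were called, and with at least 3 of the 4 rule genes required 29 and 44. Il17a had 0 UMIs in these lymphocytes and was at least 63.5-fold higher in members. Trdv4 stood at 973 and 931 CPM against 16.3 and 26.6, a log2 fold change of 5.45 ± 0.36 (adjusted p = 0.00637, edgeR). Trdv4 is a segment of the delta chain, whose gene Trdc was used by the rule. Its calls in this comparison therefore follow in part from the choice of members and give no support to their name. Il1r1 stood at 791 and 929 CPM against 24.5 and 0, and Krt83, a hair keratin, at 203 and 381 CPM against 4.08 and 6.64. Tns4, Rbpms2, Dkk3, Prelid2, Ablim3, Blk, Cdh10 and Ppp1r14c completed the 12 largest. With at least 3 rule genes required, the 6 barcodes with 2 joined these lymphocytes (then 17 and 18), and 8 of these 12 were no longer called, Blk, Il1r1 and Cdh10 among them (adjusted p = 0.0559, 0.0702 and 0.0981, edgeR), while Il17a and Trdv4 were. DESeq2 did not call Il17a here (adjusted p = 0.406).

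The genes lower in members than in these lymphocytes were led by Sema6d, Lilr4b, Entpd1, Hspb1 and Alcam. Hspb1 was not called with no replicate block, with at least 3 rule genes or without high doublet scores (adjusted p = 0.102, 0.0612 and 0.262, edgeR), nor Lilr4b with at least 3 rule genes (0.0559). Prkch, a protein kinase C of T cells, stood at 18.4 and 13.2 CPM against 836 and 365 (log2 fold change -5.25, adjusted p = 0.00244, edgeR). Ctla2a stood at 12.3 and 39.6 CPM against 314 and 1156. Of the lists, T cell receptor signalling had 2 higher (Sla and Rasgrp1) and 3 lower genes (Lck, Prkcq and Fyb) of 26, cytokine receptors 2 higher (Il1r1 and Il7r) and 0 lower of 26, and homing genes 1 higher (Cxcr6) and 3 lower (Klf2, Ccr7 and Itga1) of 23. Without high doublet scores Itga1 was not called (adjusted p = 0.0503, edgeR). In the cytotoxic, cell cycle, immediate early and presentation lists 0 of 17, 14, 32 and 26 tested genes were called in this comparison. That is near the share over all tested genes, 0.801% higher and 0.639% lower. Without the barcode with fibroblast RNA 2 immediate early and 3 presentation genes were lower. Signalling then had 4 higher and 7 lower genes, cytokine receptors 3 and 2 and homing genes 1 and 6. Over all tested genes 1.53% were then higher and 2.01% lower.

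Against the innate lymphoid barcodes 90 (1.13%) genes were higher in members and 103 (1.29%) lower. That class held natural killer genes in replicate 1 (1782 CPM summed) and 0 UMIs of them in replicate 2, with type 2 genes in both (2314 and 3499 CPM), and also mast cell markers in replicate 1 (2789 CPM) and fibroblast markers in replicate 2 (1812 CPM), whose part in the result was not tested. Il17a, Actn2, Cdh10, Ablim3, Fstl4, Tcrg-V6, Tcrg-C2, Tns4 and Cd40lg had 0 UMIs in these barcodes. Actn2 was at least 76.3-fold higher. Tcrg-V6 and Tcrg-C2 belong to the gamma chain, as does the rule gene Tcrg-C1, so their differences follow in part from the choice of members. DESeq2 called neither Actn2, Fstl4, Tcrg-V6 nor Il17a in this comparison (adjusted p = 0.387, 0.503, 0.0945 and 0.360), and Cd40lg was not called with at least 3 rule genes (0.118, edgeR). Blk stood at 438 and 685 CPM with 1 UMI in the innate class. Pdcd1, with 7 and 6 UMIs there, was called higher in members. Of the lists, cytokine receptors had 2 higher and 1 lower gene of 26 in this comparison, and T cell receptor signalling 3 and 3 of 26. The genes lower in members included Ccr8, a chemokine receptor, with 1 UMI against 268 and 154 CPM, Kit, the receptor for stem cell factor, at 2.05 and 6.60 CPM against 254 and 235, and Hes1, a Notch target, at 12.3 and 2.20 CPM against 424 and 264. Thsd4 and Vipr2 had 0 UMIs in members, and Vipr2 was not called with no replicate block (adjusted p = 0.0904, edgeR).

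Partners of these cells were read by class. Il1b, the cytokine that Il1r1 binds, stood at 1226 and 854 CPM in C1q macrophages and at 1226 and 1099 CPM in the remaining Ptprc-positive barcodes. Il23a, a chain of interleukin-23, was near 0 throughout: it stood at 0.971 and 3.16 CPM in C1q macrophages, had 0 UMIs in members, and was at most 4.45 CPM in barcodes with neither a Ptprc UMI nor 1% Pth. Cxcl16, the ligand of Cxcr6, stood at 392 and 428 CPM in C1q macrophages, and Ccl2 at 1599.8 and 2108 CPM. Ccl20, the ligand of Ccr6, had 0 UMIs in these classes. For the receptor of interleukin-17A, Il17ra stood at 11.8 and 9.59 CPM in barcodes with 1% Pth or more and at 21.3 and 20.2 CPM in those with neither, and Il17rc at 8.43 and 6.73 and at 12.7 and 14.4 CPM. Members had 55.3 and 33.0 CPM of Il17ra, and the other Ptprc-positive barcodes 69.7 and 39.2. These are levels in RNA and show no signal between cells.

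The replicates were alike within members in most abundant genes. Without the barcode with fibroblast RNA 26 of 1886 genes with at least 100 CPM in either library differed by 3-fold or more, and with it 59 of 1907, led by Ptn and Col1a2. No test was possible with 1 library per pool. Cxcl10, an interferon-induced chemokine, had 153 UMIs (349 CPM) in replicate 1 and 0 in replicate 2, at least 52.9-fold higher, while the other Ptprc-positive barcodes had 229 and 143 CPM. Ccl5 had 64 UMIs and 0, in the direction of the other Ptprc-positive barcodes (949 and 72.6 CPM). The member with most Gzmb UMIs was kept here, and the part of single members in the Cxcl10 and Ccl5 UMIs was not tested. Catsper2, Bach2 and Sytl3 were also higher in replicate 1. Cxcl2, a neutrophil attractant, was higher in replicate 2, at 502 CPM against 84.4, as were Eml6, Abhd15, Ube3a and Txnip.

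Members divided into 2 kinds by Gfp, whose meaning the labels do not give. Gfp UMIs per member ran from 0 through a median of 16 to 99 in replicate 1 and from 0 through 14 to 101 in replicate 2. At least 3 Gfp UMIs were found in 26 of 37 (70.3%) and 34 of 51 (66.7%), while 11 members had 1 or 2. Whether such low counts came from free RNA was not tested. The other Ptprc-positive barcodes had at least 3 in 59.6% and 61.9%, and the barcodes with 1% Pth or more in 98.8% and 97.4%. Xist, the RNA of the silenced X chromosome of female cells, had a UMI in 10 and 9 members, and 0 of these 19 had more than 2 Gfp UMIs. Of the members without Xist 26 of 27 and 34 of 42 had at least 3. In the other Ptprc-positive barcodes 13 of 130 with Xist had at least 3 Gfp UMIs, against 249 of 300 without. The Y-linked genes Ddx3y, Uty, Kdm5d and Eif2s3y had 0 UMIs in the 88 members, and a UMI in 30 of 430 other Ptprc-positive barcodes.

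Members with at least 3 Gfp UMIs and members with fewer shared the receptor pattern in part. Trdv4 was found in 26 of 26 and 31 of 34 members with at least 3 Gfp UMIs and in 9 of 11 and 12 of 17 with fewer, and Tcrg-V6 in 22 of 26 and 21 of 34 against 7 of 11 and 10 of 17. Il17a was found in 15 of 26 and 19 of 34 against 4 of 11 and 4 of 17. The 5 members without Trdc all had Xist UMIs and at most 2 Gfp UMIs, so that they weigh on the second group only. The member with 22 Gzmb UMIs did so too, with 5 Xist and 1 Gfp UMIs and 0 of Trdv4, Tcrg-V6 and Il17a. Members are cells of 1 library each and the split was made on measured values, so these shares are a description. The reporter tdTomato had at most 5 UMIs in a member, at 111 and 136 CPM, against 104 and 106 CPM in the other Ptprc-positive barcodes.

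**Figure D4:**
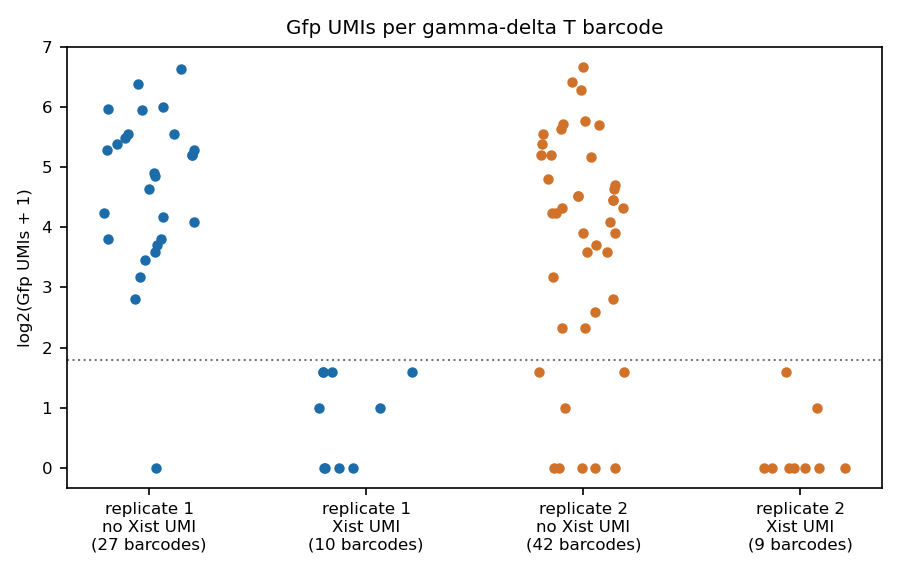
Gfp UMIs per member as log2(UMIs + 1), by replicate and by whether the barcode had an Xist UMI; the dotted line lies below 3 UMIs. The 19 barcodes with Xist all lie below the line, and 60 of the 69 without Xist lie above it.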

How the data were processed

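The authors deposited raw counts of UMIs for genes and barcodes, from Cell Ranger 7.0.0 on mm10, per the submitters' processing notes. The rule by which cells were called was not given in the sources used here. Libraries held 41517620 and 88283761 UMIs at medians of 24345 and 26611.5 per barcode. Members, lists and tests were chosen with earlier results of these data known. Scrublet (scanpy 1.11.5) predicted 23 and 6 doublets in the libraries (1.64% and 0.171%). The second share is below what a working caller finds, and predictions were not removed. UMI counts were summed per class and library and tested with edgeR 4.0.16 (TMM, filterByExpr, quasi-likelihood) with the library as a block, since all classes in it share the same animals. The first comparison had 4 sums and the others 10. P-values measure how class differences vary between 2 pools of mice. Genes used by the rules stayed in the fits and were not counted. Named genes were the 12 largest called changes each way with the same sign in both libraries and at least 50 CPM, per list up to 5 called genes of smallest p and the most abundant uncalled gene, and between libraries the 5 largest ratios each way; Il12rb1, Il17f, Il2ra, Ccr6, Csf2, Areg, Ifng, Cst7, Gzmb, Maf, Zbtb16, Cd69, S1pr1, Lck, Sla, Rasgrp1, Prkcq, Pfkp, Dusp5, H2-Q7 and other list members outside this rule were named after their values were seen. CPM levels have exact Poisson intervals, and shares have exact binomial intervals, both at 95% and for counting error only. The fits were tested on simulated counts. DESeq2 1.42.0 was an alternative. Results on some items are not reported here.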

Additional observations from a re-analysis of the deposited data

How the results depend on the processing

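Against the other Ptprc-positive barcodes 1635 genes were called. DESeq2 called 998, the mean of the other classes in the fit over 5 classes 997, removal of barcodes with doublet scores of 0.25 or more 3699, and removal of the single member with fibroblast RNA, an alternative chosen after seeing the data, 3159. Against the other Cd3-positive lymphocytes 115 were called. The count was 73 with at least 3 rule genes, 349 with DESeq2, 235 without high doublet scores, 1017 with no filter on low counts, 420 with only the 2 classes in the fit and 275 without the member with fibroblast RNA. Against innate lymphoid barcodes 193 were called, and 336, 345, 877, 371 and 325 under DESeq2, the doublet limit, no filter, only the 2 classes and without that member. The cause of these moves was not tested.

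Fits with no replicate block called 2083, 97 and 172 genes in the 3 comparisons. The pairing comes from the libraries, since all classes of a library share its mice. The share of members was 15.9% with at least 3 rule genes, 16.7% with a Ptprc UMI required, 16.4% with no C1q UMI allowed, 17.4% with Pth under 0.5%, and 16.8% to 17.2% with 1 replicate left out. The mean share with Il17a was 35.6% at 3000 UMIs, 31.7% at 2000 and 48.2% without thinning, and 33.3% to 37.8% with 1 replicate left out.

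For the 144 gene results, 1808 alternative values were computed: 1603 were the same, 72 lost the call, 19 gained one, 114 moved and 0 reversed. For refitted values, the same meant an unchanged direction and side of the threshold. Values with 1 replicate left out have no p-value, and there the same meant within 1 SE of the main log2 fold change. That held for 29 of 83 values without replicate 1 and 39 of 98 without replicate 2, while 54 and 59 moved. In the fit over 5 classes, which also has other residual degrees of freedom and fewer genes tested, 27 genes lost their call against the other Ptprc-positive barcodes, Cxcl16 among them (adjusted p = 1, edgeR). Without high doublet scores Junb and Ctla4 were called higher (adjusted p = 0.00795 and 0.00800, edgeR). The comparisons rest on 2 pools, with 29 other Cd3-positive and 52 innate lymphoid barcodes.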
